A study of Mus musculus with 8 samples.

Results

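The transcripts described here encode 10 enzymes that make serine, split it into glycine and a carbon unit, and pass that unit through the folate pool: Phgdh, Psat1, Psph, Shmt1, Shmt2, Mthfd1, Mthfd1l, Mthfd2, Aldh1l1 and Aldh1l2. They are 10 of the 19938 genes measured, chosen by name from a list drawn up with the comparison of these hearts already known. All 10 were on the array, each as a single row annotated with that symbol alone, so the rule that picks the brightest row of a gene had nothing to choose. One further row, annotated to Phgdh together with a second symbol, was left out.

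Cells build serine from the glycolytic intermediate 3-phosphoglycerate through Phgdh, Psat1 and Psph in turn. Serine hydroxymethyltransferases move a carbon of serine onto tetrahydrofolate, and the carbon then serves the synthesis of purines, thymidylate and methionine. Most steps of this folate cycle exist in a cytosolic and a mitochondrial version encoded by different genes, and in many cells the mitochondrial arm oxidises serine carbon to formate that leaves for the cytosol. Mthfd2 is known for being low in most resting adult tissues and high in embryos, tumours and cells with mitochondrial stress. The transcription factor ATF4, which acts in the integrated stress response, is a known activator of several of these genes.

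All 8 hearts came from fasted male mice, 12 weeks old, on a c57/bl background, 4 of them with the genotype MHC-Plin5 and 4 labelled as control. MHC-Plin5 mice overexpress Plin5, a coat protein of lipid droplets, in cardiomyocytes, under a promoter named MHC in the label. The labels say no more of the control genotype, nor how many transgenic lines were used. RNA of the whole heart was hybridised to whole-transcript arrays, and levels are log2 values normalised by RMA, so a difference of 1 is a doubling.

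Array medians lay between 5.99 and 6.24, and Plin5 between 8.58 and 9.04 in control and between 12.08 and 12.69 in MHC-Plin5 hearts. Markers of contracting cardiomyocytes averaged 13.58 to 13.63 in control and 13.36 to 13.61 in MHC-Plin5 hearts, so the defining markers of heart muscle were high in every sample. Over 13 marker lists for cell types of the heart and its surroundings, 0 of 63 measured entries were called by the limma test described below. The shares over all genes were 2.08% higher and 1.17% lower, so a count of 0 says little about cell composition. Some lists also spread widely between hearts, such as the atrial markers (means of 7.25 to 11.33 in control), where a change could be missed. With 4 arrays per group, the spread between hearts sets the precision.

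In the hearts with extra Plin5, 5 of the 10 enzyme transcripts rose and 0 fell. Mthfd2 was about 20-fold higher, Aldh1l2, Psat1 and Phgdh nearly 3-fold and Shmt2 1.62-fold, while the values of Psph, Shmt1, Mthfd1, Mthfd1l and Aldh1l1 did not pass the test. The test was limma, a linear model fitted to all 19938 genes, with Benjamini-Hochberg adjustment over all of them and calls where the adjusted p was below 0.05. By this rule 2.08% of all genes were called higher and 1.17% lower. The median log2 difference, MHC-Plin5 minus control, was 0.63 over the 10 enzymes and -0.03 over all genes. Since the list was drawn up with this comparison known, its counts are a description. In whole hearts a change in the number of cells of a type and a change in RNA per cell cannot be told apart.

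**Figure D1:**
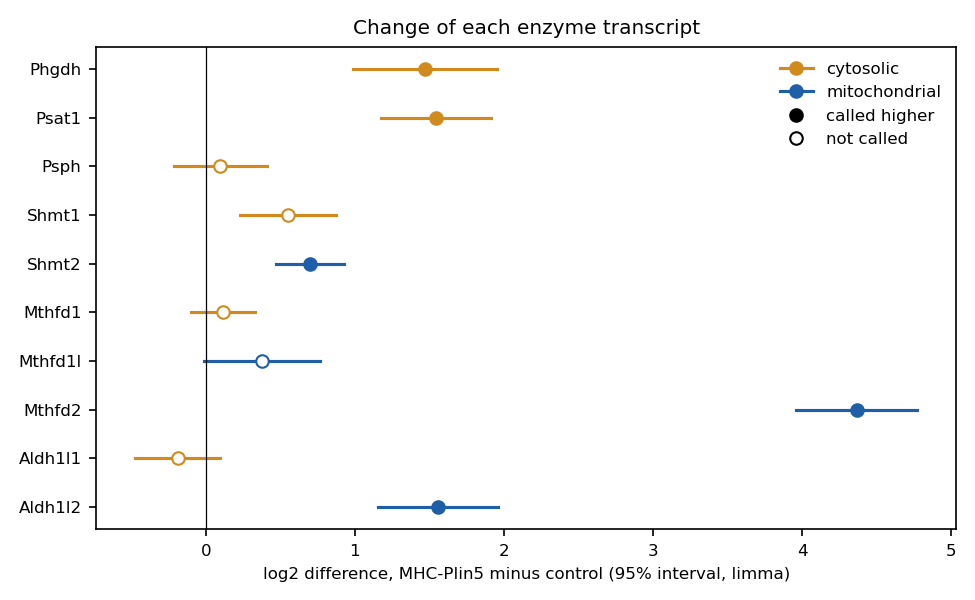
Log2 difference of each of the 10 enzyme transcripts (x axis, MHC-Plin5 minus control, with the 95% limma interval), cytosolic forms in orange and mitochondrial forms in blue; filled points were called. Mthfd2 stands alone at 4.37, Phgdh, Psat1 and Aldh1l2 lie near 1.5, Shmt2 at 0.70, and the interval of Aldh1l1, Mthfd1, Mthfd1l and Psph includes 0.

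The upstream DNA of 5 of these genes is shown to place the transcripts that rose together (Mthfd2, Phgdh, Psat1, Shmt2) beside Mthfd1, the cytosolic relative of Mthfd2. Each is the 250 bases before the RefSeq transcript start in the mouse build GRCm38.p6, read 5′ to 3′ on the strand of the gene. Capitals mark, on either strand, CCAAT (the CCAAT box), TGATG (the ATF side of the site that ATF4 shares with C/EBP proteins) and TGACNNNGC (the core of the antioxidant response element). The windows are chr6:83317605-83317854 on the minus strand for Mthfd2, chr3:98339970-98340219 (minus) for Phgdh, chr19:15925060-15925309 (minus) for the first of 2 listed Psat1 starts, chr10:127522445-127522694 (minus) for Shmt2 and chr12:76254982-76255231 (plus) for Mthfd1.
Mthfd2: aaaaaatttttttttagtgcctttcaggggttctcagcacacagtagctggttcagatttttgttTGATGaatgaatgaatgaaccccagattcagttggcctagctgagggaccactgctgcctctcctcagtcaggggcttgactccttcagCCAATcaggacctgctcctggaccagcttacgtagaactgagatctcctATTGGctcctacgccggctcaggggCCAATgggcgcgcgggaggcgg
Phgdh: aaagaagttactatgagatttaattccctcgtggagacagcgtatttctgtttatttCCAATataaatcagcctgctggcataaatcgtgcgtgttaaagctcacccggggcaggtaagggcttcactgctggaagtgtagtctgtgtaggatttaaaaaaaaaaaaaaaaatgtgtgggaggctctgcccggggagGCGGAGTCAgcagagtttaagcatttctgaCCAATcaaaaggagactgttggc
Psat1: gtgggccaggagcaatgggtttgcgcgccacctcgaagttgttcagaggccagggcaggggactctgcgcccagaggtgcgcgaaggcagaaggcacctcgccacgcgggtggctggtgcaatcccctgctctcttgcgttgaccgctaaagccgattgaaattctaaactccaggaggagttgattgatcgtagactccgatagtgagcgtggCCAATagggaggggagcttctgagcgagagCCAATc
Shmt2: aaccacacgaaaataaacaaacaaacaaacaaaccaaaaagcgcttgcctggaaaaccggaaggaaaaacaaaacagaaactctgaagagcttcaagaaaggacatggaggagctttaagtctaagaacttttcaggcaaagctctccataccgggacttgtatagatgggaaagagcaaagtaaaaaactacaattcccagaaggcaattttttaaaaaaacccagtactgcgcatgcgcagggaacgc
Mthfd1: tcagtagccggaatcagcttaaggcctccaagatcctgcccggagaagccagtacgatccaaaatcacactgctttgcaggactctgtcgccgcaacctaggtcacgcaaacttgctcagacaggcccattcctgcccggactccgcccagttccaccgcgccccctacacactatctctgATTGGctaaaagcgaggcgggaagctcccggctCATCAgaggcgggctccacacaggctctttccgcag

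The RefSeq table held 10 such windows for 9 of the 10 enzymes, all but Aldh1l2. The motif TGATGNAA, the core shared by ATF4 and C/EBP sites, matched 0 of the 10 windows and 3.45% of the 32851 windows of all genes. The shorter TGATG, which lies inside it, matched 3 of 10, in Mthfd2, Mthfd1l and Mthfd1, and 34.5% of all. CCAAT matched 7 of 10 against 33.8% of all. It had 3 copies in Mthfd2 and 2 each in Phgdh, Psat1 and the uncalled Psph and Aldh1l1. The uncalled Shmt1 and Mthfd1 also held it, and the called Shmt2 did not. TGACNNNGC was found in Phgdh alone (10.2% of all windows) and the E-box CACGTG, bound by MYC, in 0 of 10 (6.02% of all). The GC box GGGCGG matched 6 of 10 and 32.7% of all. Shmt2 held none of these 6 motifs. The searches for TGATG, for the CCAAT box and for the GC box were added after the first 3 results were seen. A match is a run of letters, and sites outside these windows were not searched.

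Of the 3 enzymes of serine synthesis, the first and second in the pathway rose and the last was not called. Phgdh, the dehydrogenase that commits 3-phosphoglycerate to serine, lay at 6.12, 6.32, 7.11 and 7.01 in control 1 to 4 and at 8.28, 8.28, 8.13 and 7.75 in MHC-Plin5 1 to 4. Every MHC-Plin5 heart was above every control heart, as for 6.24% of all genes, and the controls split into a lower and a higher pair. The log2 difference was 1.47 (SE 0.22, limma adjusted p = 0.00526), a 2.77-fold rise. Psat1, the aminotransferase of the second step, went from 6.18, 6.46, 6.20 and 6.48 in control 1 to 4 to 7.67, 8.24, 8.11 and 7.47 in MHC-Plin5 1 to 4. Hearts 2 and 3 were the highest and the groups were far apart (log2 difference 1.54, SE 0.17, adjusted p = 0.000917, 2.92-fold).

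Psph, the phosphatase that releases free serine, overlapped between the groups. It stood at 6.91, 7.55, 7.29 and 7.38 in the control hearts and at 7.49, 7.49, 7.41 and 7.14 in the MHC-Plin5 hearts. The log2 difference of 0.10 had a 95% interval from -0.22 to 0.41 (limma adjusted p = 0.798), below the intervals of Phgdh (0.99 to 1.95) and Psat1 (1.18 to 1.91). The Psph difference was -0.03 without control 1, 0.19 without control 2 and 0.27 without the 2 arrays of highest median, and was called in none of these.

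**Figure D2:**
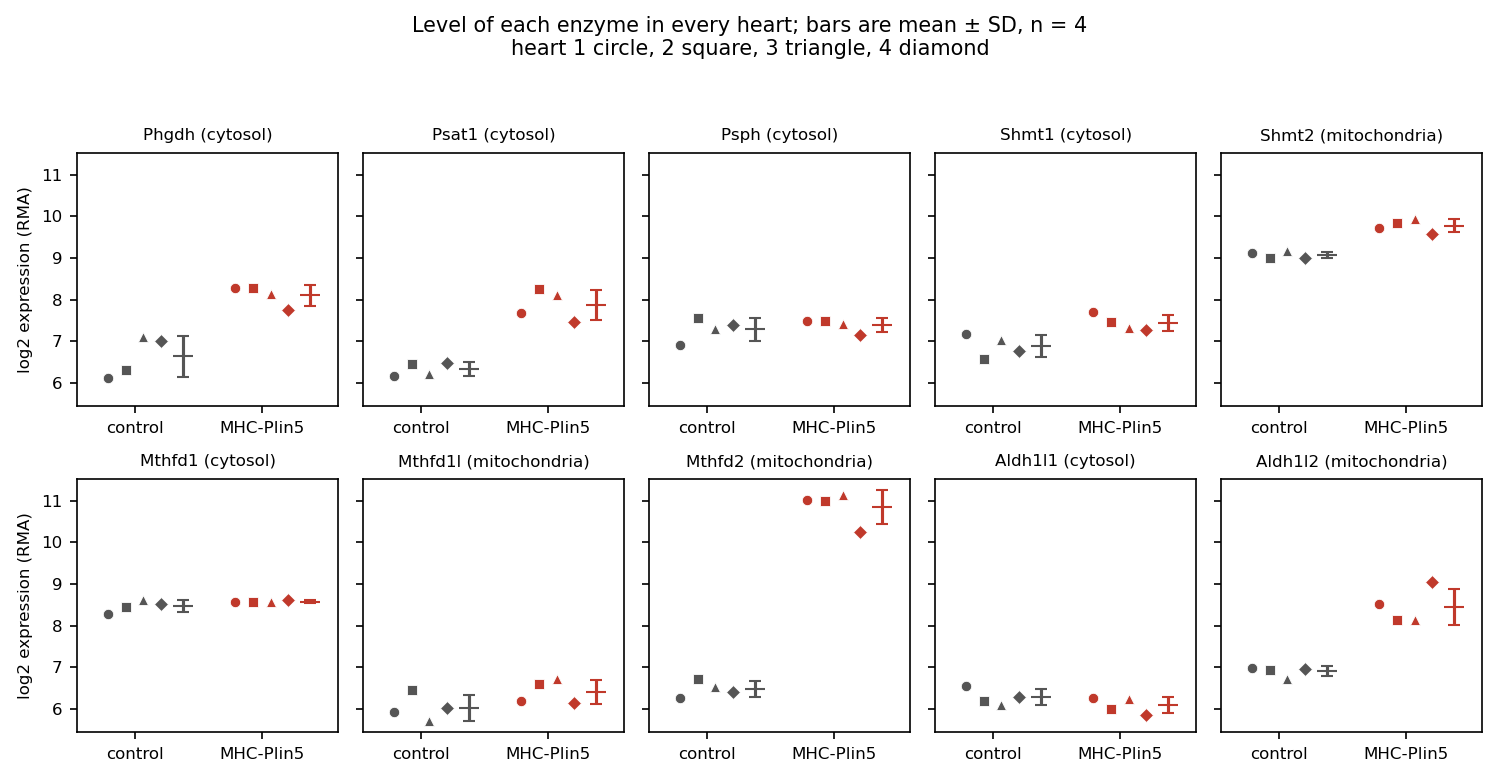
Log2 level (y axis, RMA) of the 10 enzyme transcripts in each control (grey) and MHC-Plin5 (red) heart, symbol by heart number, with the mean ± SD of 4 hearts at the side. The groups lie apart in Phgdh, Psat1, Shmt1 (narrowly, and not called), Shmt2, Mthfd2 and Aldh1l2 and overlap in the other 4. Over all genes, 6.24% had every MHC-Plin5 heart above every control heart.

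Serine hydroxymethyltransferase is the entry of serine carbon into the folate pool. Its mitochondrial form Shmt2 lay at 9.12, 9.00, 9.16 and 9.01 in control 1 to 4 and at 9.71, 9.85, 9.94 and 9.58 in MHC-Plin5 1 to 4. The spread within each group (SD 0.08 and 0.16) was small beside the log2 difference of 0.70 (SE 0.10, limma adjusted p = 0.00526). The cytosolic form Shmt1 lay at 7.18, 6.58, 7.03 and 6.76 in control hearts and at 7.70, 7.47, 7.32 and 7.27 in MHC-Plin5 hearts. These groups did not overlap either, but the lowest MHC-Plin5 heart stood only just above the highest control. The log2 difference of 0.55 (SE 0.15, 95% interval 0.23 to 0.88) missed the threshold with a limma adjusted p of 0.07. Shmt1 passed it when genes with a mean level under 7 were left out (adjusted p = 0.0462) or when arrays were weighted (0.0281).

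Mthfd2 is the mitochondrial dehydrogenase and cyclohydrolase that oxidises methylene-tetrahydrofolate. It had the second largest rise of all genes tested. It lay at 6.26, 6.73, 6.54 and 6.41 in control 1 to 4, near the array medians, and at 11.01, 11.00, 11.14 and 10.25 in MHC-Plin5 1 to 4. Hearts 1 to 3 lay close together and heart 4 lower, still far above the highest control. The log2 difference was 4.37 (SE 0.18, limma adjusted p = 6.9e-07), with a fold of 20.6 and a 95% interval from 15.6 to 27.3. Its closest relative Mthfd2l, another mitochondrial enzyme of the same step, lay at 7.42 to 7.58 in control and 7.19 to 7.52 in MHC-Plin5 hearts (log2 difference -0.21, SE 0.10, limma adjusted p = 0.348).

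Mthfd1l and Mthfd1, which act on the same carbon units, did not pass the test. Mthfd1l, the mitochondrial synthetase that releases formate, lay at 5.92, 6.45, 5.71 and 6.03 in control hearts and at 6.18, 6.59, 6.72 and 6.13 in MHC-Plin5 hearts. These groups overlapped (log2 difference 0.38, 95% interval -0.01 to 0.77, limma adjusted p = 0.318). They lay near the array medians, as Mthfd2 and Psat1 did in control hearts. Folds can be understated at such levels, which was not tested here. Mthfd1, the cytosolic enzyme that joins all 3 activities in a single protein, lay at 8.27, 8.45, 8.61 and 8.51 in control hearts. In MHC-Plin5 hearts it was 8.58, 8.56, 8.56 and 8.62, the narrowest spread of the 10 transcripts in that group. Its log2 difference of 0.12 had a 95% interval from -0.10 to 0.33 (adjusted p = 0.622), and it was 0.05 without control 1.

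The 10-formyltetrahydrofolate dehydrogenases burn the carbon unit to CO2 while making NADPH. Mitochondrial Aldh1l2 lay at 6.99, 6.94, 6.72 and 6.95 in control 1 to 4 and at 8.52, 8.13, 8.14 and 9.04 in MHC-Plin5 1 to 4. Here heart 4 was the highest and hearts 2 and 3 the lowest (log2 difference 1.56, SE 0.18, limma adjusted p = 0.00144, 2.94-fold). Cytosolic Aldh1l1, known for its high level in liver and astrocytes, lay near the array medians at 6.54, 6.20, 6.09 and 6.29 in control hearts and 6.27, 6.01, 6.24 and 5.86 in MHC-Plin5 hearts. The groups overlapped, and the log2 difference of -0.19 had a 95% interval from -0.47 to 0.10 (adjusted p = 0.524). Without control 1 it was -0.10.

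Of the 4 mitochondrial enzymes 3 were called higher (median log2 difference 1.13) and of the 6 cytosolic enzymes 2 (median 0.33), both of them in serine synthesis, which has no mitochondrial version here. Of all genes 2.08% were called higher. Matched forms were compared by their log2 ratio within each heart, from which offsets between probe sets drop out. For 5 pairs this ratio was compared between the groups by exact permutation of all hearts (two-sided), with Benjamini-Hochberg adjustment over the 5. The smallest p that 4 against 4 hearts allows is 0.0286. Intervals are the exact permutation intervals, with 97.1% coverage.

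Mthfd2 changed by 4.25 more than Mthfd1 on the log2 scale (interval 3.36 to 4.68, exact p = 0.0286, adjusted p = 0.0476), a 19.1-fold larger fold. The ratio, less its control mean, was 4.41, 4.43, 4.56 and 3.62 in MHC-Plin5 1 to 4 and between -0.12 and 0.25 in control hearts. Aldh1l2 changed by 1.74 more than Aldh1l1 (interval 1.15 to 2.74, exact p = 0.0286, adjusted p = 0.0476), with 1.64, 1.50, 1.28 and 2.56 in MHC-Plin5 1 to 4. Mthfd2 also outran its mitochondrial relative Mthfd2l, by 4.57 (interval 3.80 to 5.10, exact p = 0.0286, adjusted p = 0.0476). All 4 MHC-Plin5 hearts lay above all 4 control hearts in these 3 pairs. Their exact p is the smallest possible one, and their adjusted p depends on how many of the pairs reached it. The pairs with Mthfd2 share its values. Aldh1l1 lay near the array medians in both groups, where a fold can be understated, which was not tested here. Since the pairs were chosen with the rise of Mthfd2 and Aldh1l2 already known, these p values are a description.

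Such a difference between forms was not detected in the other pairs. Shmt2 exceeded Shmt1 by 0.14 (interval -0.41 to 0.68, exact p = 0.4, adjusted p = 0.4), with overlapping groups. Mthfd1l exceeded Mthfd1 by 0.26 (interval -0.48 to 1.06, exact p = 0.314, adjusted p = 0.393). The mitochondrial form thus changed more in both of 2 pairs built on Mthfd2 or Aldh1l2, and the intervals of the other 2 mitochondrial-cytosolic pairs include 0 as well as differences of about 0.7 and 1.1.

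**Figure D3:**
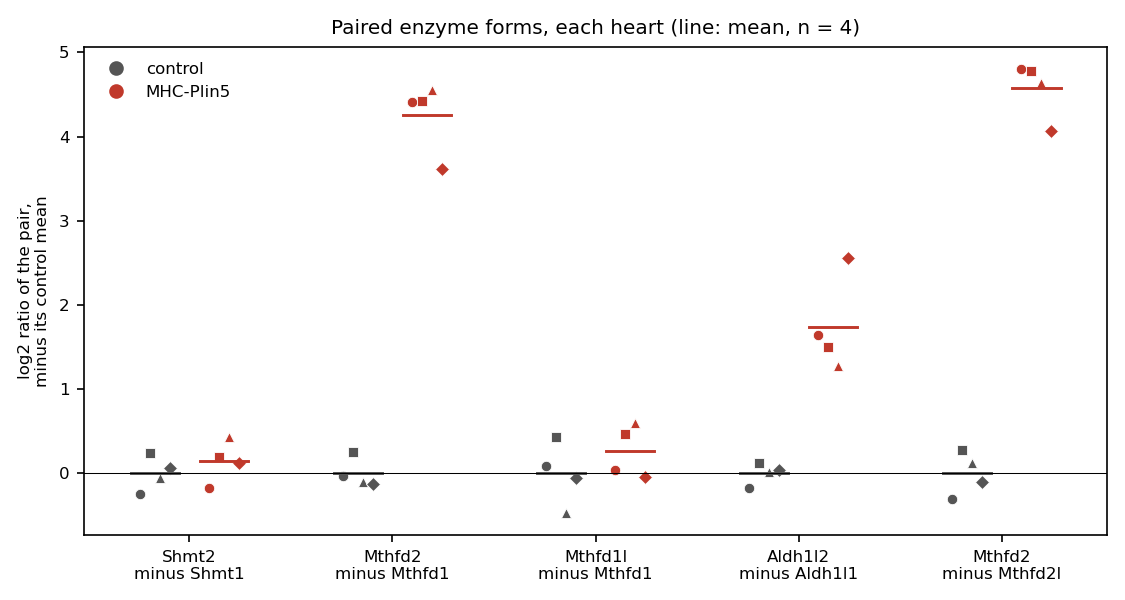
Log2 ratio of paired enzyme forms in each heart less the mean ratio of the control hearts (y axis), control in grey and MHC-Plin5 in red, symbol by heart number, line at the mean of 4. The ratios with Mthfd2 rise by 4.25 and 4.57 and that of Aldh1l2 to Aldh1l1 by 1.74, while Shmt2 to Shmt1 and Mthfd1l to Mthfd1 overlap between groups.

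The 5 called enzymes did not share an order of hearts. Of the 4 MHC-Plin5 hearts, number 4 was the lowest in Phgdh, Psat1, Shmt2 and Mthfd2 and the highest in Aldh1l2. Plin5 itself was lowest in hearts 1 and 4 (12.17 and 12.08, against 12.69 and 12.63). Relative to the control mean, Atf4 stood at 1.20, 1.74, 1.80 and 1.27 in MHC-Plin5 1 to 4 and Psat1 at 1.34, 1.91, 1.78 and 1.14, hearts 2 and 3 leading in both. Atf5, a relative of ATF4 that responds to mitochondrial stress, stood at 1.95, 1.51, 1.35 and 2.10, with hearts 1 and 4 leading as for Aldh1l2 at 1.62, 1.22, 1.24 and 2.14. Phgdh stood at 1.64, 1.64, 1.49 and 1.11, Mthfd2 at 4.53, 4.52, 4.66 and 3.77 and Shmt2 at 0.64, 0.78, 0.87 and 0.51. Hearts 2 and 3 led in Shmt2 but not in Phgdh or Mthfd2. With 4 hearts an order is easily matched, and a link between these genes was not tested. Macrophage markers had a mean level of 7.70 to 8.10 in control hearts and 7.87 to 8.54 in MHC-Plin5 hearts, where hearts 3 and 4 were the highest (8.54 and 8.52).

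The genes whose profile lay closest to each called enzyme were found by the root mean square distance over the 8 hearts, after subtracting each gene's control mean. This measure uses the same comparison and is a description. It is not scaled, so genes with a group difference of similar size come out as near. Asns, Mthfd2, Plin5 and Slc7a5 held ranks 1, 2, 3 and 4 of the rise over all genes. For Mthfd2 the closest was Asns, asparagine synthetase, at a distance of 0.17, followed by Plin5 at 0.63 and the amino acid transporter Slc7a5 at 0.83. For Psat1 they were Atf4 (0.13), the RNA polymerase III subunit Polr3g (0.17) and the pseudokinase Trib3 (0.18). For Phgdh they were Atf4 (0.31), Sars, the cytosolic seryl-tRNA synthetase (0.33), and Polr3g (0.33). Shmt2 lay closest to Supt3, Mknk1 and Ptger4 (0.07 to 0.08), among many genes of a small rise. For Aldh1l2 they were the transcription factor Tfcp2l1 (0.27), the cationic amino acid transporter Slc7a3 (0.28) and Atf5 (0.28).

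**Figure D4:**
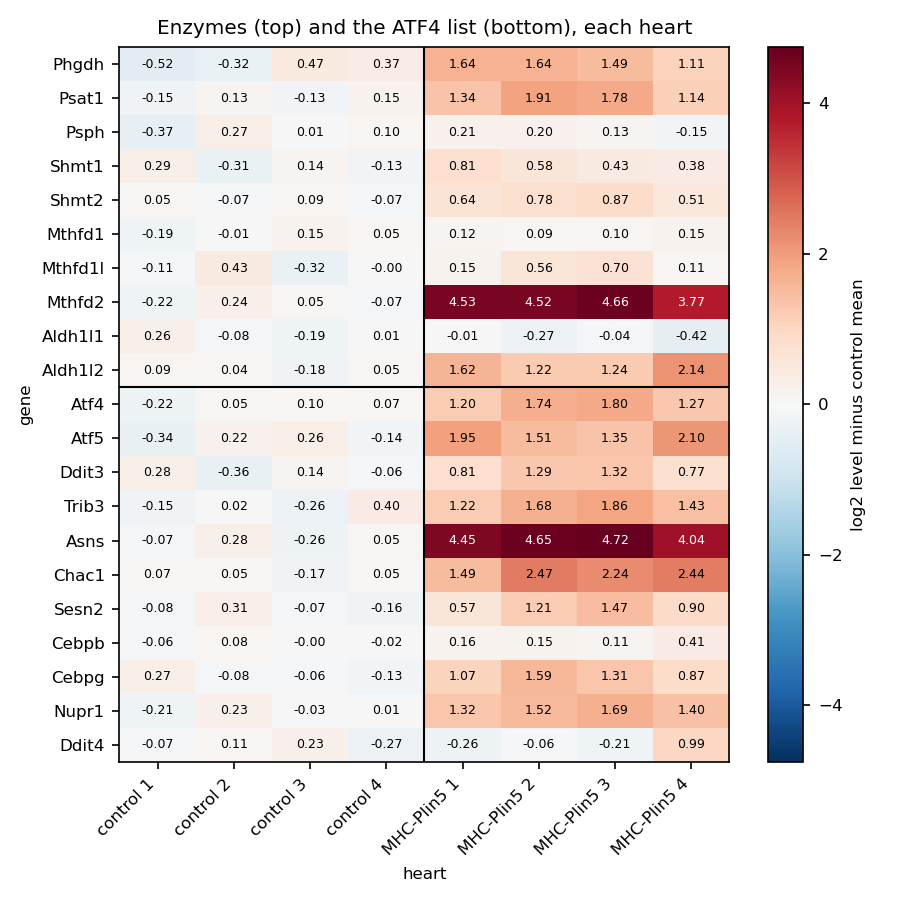
Log2 level less the control mean (colour and printed value) of the 10 enzymes and of 11 genes of ATF4 and the amino acid response (rows) in each heart (columns). Mthfd2 and Asns reach 3.77 to 4.72 in MHC-Plin5 hearts, and heart 4 is low for Mthfd2 (3.77) and high for Aldh1l2 (2.14).

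In the list of ATF4 and the amino acid response, 9 of 11 genes were higher and 0 lower, against 2.08% and 1.17% of all genes. The median log2 difference was 1.48 against -0.03 over all genes. This list, like those below, was drawn up with earlier results of these data known, so its counts are a description. Asns (4.46, SE 0.16), Chac1, which degrades glutathione (2.16, SE 0.19), and Atf5 (1.73, SE 0.19) led the list. Trib3 (1.55), Atf4 (1.50), Nupr1 (1.48), the C/EBP factor Cebpg (1.21) and Ddit3, the stress factor CHOP (1.05), followed. The C/EBP factor Cebpb and the mTORC1 inhibitor Ddit4 were not called (0.21 and 0.11). Sesn2, another mTORC1 inhibitor of that list (1.04, SE 0.18, limma adjusted p = 0.0133), lost its call without control 1, control 3 or MHC-Plin5 2 (adjusted p of at most 0.051).

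Beyond these, 10 lists of genes that feed, share or use the serine and folate route were counted. Of their 56 measured genes 6 were higher and 1 lower, against 2.08% and 1.17% of all genes, with a median log2 difference of -0.04. The other folate enzymes (5 measured), folate uptake and transport (5), glycine cleavage and choline breakdown (6) and the mitochondrial tRNA and translation enzymes that use folate (3) had 0 called genes. The members of smallest p in these lists were Ggh and Fpgs (log2 differences 0.34 and 0.20), Slc25a32 and the folate transporter Slc46a1 (0.32 and -0.16), Dld and Amt of the glycine cleavage system (-0.37 and 0.23), and Mto1 and Gtpbp3, which modify mitochondrial tRNA (-0.20 and -0.07). Dld lay at 10.80 to 10.92 in control and 10.11 to 10.68 in MHC-Plin5 hearts (limma adjusted p = 0.168), and Mto1 at 8.57 to 8.67 and 8.29 to 8.52 (adjusted p = 0.31). At most 1 gene was called higher in each of the remaining lists except the carriers.

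Among 10 carriers of serine and glycine, 2 were higher and 0 lower, against 2.08% and 1.17% of all genes. Slc6a9, the glycine transporter GLYT1 of the plasma membrane, lay at 7.25, 7.35, 7.22 and 7.42 in control hearts and at 8.95, 9.35, 9.15 and 9.24 in MHC-Plin5 hearts. Both groups were tight and far apart (log2 difference 1.86, SE 0.11, limma adjusted p = 8.52e-06, 3.64-fold). Slc1a4, a transporter of alanine, serine and cysteine, went from 6.10, 6.70, 6.36 and 6.88 to 7.48, 8.20, 8.19 and 7.41 (1.31, SE 0.22, adjusted p = 0.0106), with hearts 2 and 3 leading as for Psat1. Slc38a2, a carrier of small neutral amino acids, was not called (0.49, SE 0.15, adjusted p = 0.124), nor was Sfxn1, the mitochondrial serine carrier (0.30, SE 0.12, adjusted p = 0.231).

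Of 5 measured glycine users 1 was higher and 1 lower, and of 9 genes of the methionine cycle and transsulfuration 1 was higher and 0 lower. Over all genes the shares were 2.08% higher and 1.17% lower. Srr, which turns L-serine into D-serine, was the only measured gene of its list of 3 and rose by 0.70 (SE 0.12, limma adjusted p = 0.0136). Gss, which adds glycine to complete glutathione, rose by 0.81 (SE 0.10, adjusted p = 0.00165). Alas1, which joins glycine to succinyl-CoA as the first step of haem synthesis, lay at 11.48, 11.34, 11.43 and 11.57 in control hearts and 11.11, 10.78, 10.75 and 11.07 in MHC-Plin5 hearts. It was the 1 called lower gene of these lists (-0.53, SE 0.11, limma adjusted p = 0.0316), and it lost the call after median centring and when MHC-Plin5 2, MHC-Plin5 3 or any 1 of the control hearts was left out (adjusted p of at most 0.113). Cth, which makes cysteine from cystathionine, rose by 0.93 (SE 0.18, adjusted p = 0.022), while Cbs, the step before it, had a difference of -0.03 (adjusted p = 0.944), and Mat2b, a subunit of methionine adenosyltransferase, -0.25 (adjusted p = 0.355). Cth lost its call without control 1, 2 or 3, without MHC-Plin5 2 or without the 2 arrays of highest median (adjusted p of at most 0.0762).

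In purine synthesis, which takes up 2 formyl-folate carbons, 1 of 8 genes was higher (2.08% of all genes). This was Atic, the enzyme of the second of these steps (0.61, SE 0.13, limma adjusted p = 0.0331), while Gart, which performs the first, had 0.04 (adjusted p = 0.91) and Prps2, which makes the ribose precursor, 0.30 (adjusted p = 0.494). Atic lost its call without control 1, 3 or 4, without MHC-Plin5 1, 2 or 3, or with the array median as a covariate (adjusted p of at most 0.116). Around the branch point in glycolysis 0 of 4 genes were called, with Pgam1 at 0.62 (adjusted p = 0.0604) and the muscle enolase Eno3 at -0.66 (0.072). Slc25a32, the mitochondrial folate carrier, had 0.32 (SE 0.11, adjusted p = 0.143), and the folate hydrolase Ggh 0.34 (SE 0.12, adjusted p = 0.176). Without MHC-Plin5 4, Pgam1 (0.71), Eno3 (-0.77) and Slc25a32 (0.39) were called, and without MHC-Plin5 1 so were Pgam1 (0.73) and Eno3 (-0.77). With all hearts kept, Pgam1 was called under the filter at a mean of 7 (adjusted p = 0.0412), an intensity trend (0.0455) or a robust trend (0.0387), and array weights called Pgam1 (0.013), Eno3 (0.0164) and Slc25a32 (0.0413).

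**Figure D5:**
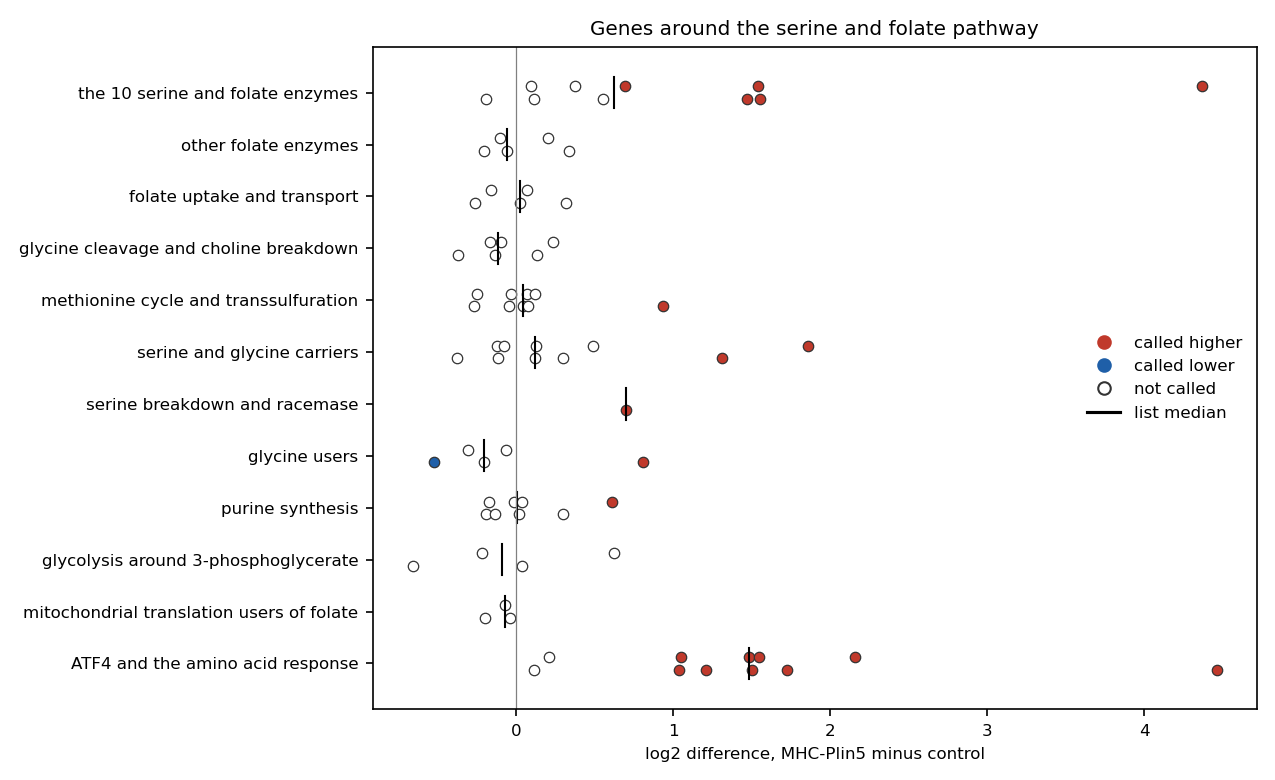
Log2 difference, MHC-Plin5 minus control (x axis), of each measured gene in the 10 enzymes and in 11 surrounding lists (rows), coloured where called, with a line at the list median. Called genes make up 5 of the 10 enzymes and 9 of 11 in the ATF4 list, against 2.08% of all genes called higher and 1.17% lower. They number at most 2 in any other list, with Slc6a9 at 1.86 the farthest right of the other lists. The lists were chosen with earlier results of these data known, so these counts are a description.

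Cells that divide need folate carbon for DNA, and markers of proliferating cells were measured beside the enzymes. They had a mean level of 5.79 to 6.07 in control and 5.79 to 6.02 in MHC-Plin5 hearts, with 0 of 6 called. Of all genes 2.08% were called higher and 1.17% lower. Thymidylate synthase, Tyms, had a log2 difference of -0.06 (limma adjusted p = 0.927) and a mean of 5.89 in control hearts. Tyms and the mean of the proliferation markers lay near or below the array medians, where a small change could be missed. Fibroblast markers had a mean level of 8.74 to 9.22 in control and 8.92 to 9.57 in MHC-Plin5 hearts, and all 7 fibroblast and all 6 macrophage markers had positive differences (up to 0.40), with 0 called. Of 7 cardiomyocyte markers, 6 had negative differences (lowest -0.18), also with 0 called. Atrial markers ranged over 7.25 to 11.33 and 8.04 to 11.63. The part of these cell types in the enzyme values was not tested.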

How the data were processed

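Hearts of 4 MHC-Plin5 and 4 control mice were measured on Affymetrix whole-transcript arrays after Ambion and Affymetrix labelling, per the labels' protocols. Per the submitters' processing notes, RMA in Affymetrix Expression Console gave the log2 values that the authors deposited. Version and settings are not stated in these sources, and detection calls and scan batches were not used here. Each heart stands for an animal, since the series text speaks of 4 mice in each group.

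Of 35556 rows, 21789 had exactly 1 gene symbol in GEO's platform annotation, 1621 several and 12146 none. Keeping the row with the highest mean for the 999 genes with several rows left 19938 genes, with no filter on dim genes. The gene test used limma 3.58.1 (lmFit, eBayes, R 4.3.3, no trend, not robust, two-sided, Benjamini-Hochberg adjustment). Pairs of forms were tested by exact permutation in Python 3.11.15. The promoter windows come from RefSeq (GRCm38.p6). Tested on simulated data of 19938 genes for this comparison, it found 35.8% of log2 changes of 0.5, 82.1% of those of 1 and 100% of those of 2, with 6 false among 151 calls.

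The enzymes, lists, pairs and tests were chosen with earlier results of these data known. Named are all 10 enzymes, Plin5, the called genes and the 2 of smallest p in each of the 11 pathway lists, called genes of the 13 cell type lists, and the 3 genes nearest each called enzyme, predicted genes left out. Cbs, Gart, Tyms, Slc38a2, Sfxn1, Cebpb, Ddit4 and Mthfd2l were named outside this rule, after their values were seen. Of 76 pathway genes 67 had a row of their own. Alternatives were filters, other normalizations, variance models and weights, the array median as covariate, the heart number as a block, and leaving out hearts. The values did not show that heart numbers pair the hearts. The deviations of same-numbered hearts correlated at 0.187, 0.0254, -0.107 and -0.0403, and the own number was the best match for heart 1 only. A pairing that leaves no such correlation would be missed.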

Additional observations from a re-analysis of the deposited data

Results flagged for a closer look

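Within the groups of 4 hearts, 8 of 104 sets of values held a heart whose gap to its nearest neighbour, as a share of the range, passed the 95% critical value of Dixon's test, which chance passes in about 1 of 20. Mthfd2 was 10.25 in MHC-Plin5 4 against 11.00 to 11.14 in the other MHC-Plin5 hearts. Its ratio to Mthfd1 shows the same heart, at 3.62 against 4.41 to 4.56. Aldh1l2 was 6.72 in control 3 against 6.94 to 6.99. Outside the 10 enzymes, Cth was 5.83 in control 2 against 6.31 to 6.37, and Atf4 7.20 in control 1 against 7.48 to 7.52. Chac1 was 6.91 in control 3 against 7.12 to 7.15, Cebpg 8.13 in control 1 against 7.73 to 7.79, and Gtpbp3, which modifies mitochondrial tRNA, 6.64 in MHC-Plin5 2 against 6.94. All of these hearts were kept in the values above.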

How the results depend on the processing

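The calls of Phgdh, Psat1, Shmt2, Mthfd2 and Aldh1l2 held under all 20 alternatives run, which include each heart left out, with 5 enzymes called higher in every one but the filter at a mean of 7 and the array weights (6 each, with Shmt1) and 0 called lower. Mthfd2 ranged from 4.27 to 4.65, Psat1 from 1.42 to 1.72, Phgdh from 1.30 to 1.63, Aldh1l2 from 1.36 to 1.67 and Shmt2 from 0.64 to 0.76. Of the others, Shmt1 ranged from 0.45 to 0.65, Mthfd1l from 0.27 to 0.61, Mthfd1 from 0.05 to 0.17, Psph from -0.03 to 0.27 and Aldh1l1 from -0.25 to -0.10. Over all genes, 415 were called higher and 233 lower. These became 884 and 741 with array weights and 129 and 40 at an adjusted p under 0.01, 355 were called lower after a further quantile normalization, and leaving out a heart gave 170 to 614 and 56 to 560, fewest higher without control 3, fewest lower without MHC-Plin5 2 and most of both without MHC-Plin5 4. The cause of these shifts was not tested. The heart number as a replicate block gave 330 higher and 177 lower genes and again 5 enzymes. For the pairs, the replicate block left the differences at 4.25 (Mthfd2 and Mthfd1), 1.74 (Aldh1l2 and Aldh1l1) and 4.57 (Mthfd2 and Mthfd2l) with an adjusted p of 0.208, since 4 signs cannot give a p below 0.125. Leaving out a heart moved the pair differences within 4.15 to 4.46, 1.47 to 1.90 and 4.47 to 4.74, and within 0.05 to 0.25 for Shmt2 and Shmt1 and 0.11 to 0.41 for Mthfd1l and Mthfd1. The filter at a mean of 7 removed Mthfd1l and Aldh1l1, so they have no value there. Signal near the array median limits what can be said of these 2.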
